A study of Homo sapiens with 12 samples.

Results

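HepaRG cells that had received BMS-309403 with palmitate were compared with cells that had received palmitate alone, over all genes that reached 1 FPKM (fragments per kilobase of transcript, scaled to library size) in at least 3 of these 6 libraries. These were 6 of the 12 libraries of the series and 11151 of its 58735 annotated genes. HepaRG is a human hepatic cell line, labelled WT in genotype. Both groups, PA and PA+BMS, had 400 µM deuterium-labelled palmitic acid for 4 h, and PA+BMS also had 50 µM BMS-309403 for 24 h. Each group had 3 libraries, as had the untreated control and the PA+OA group (palmitate with 200 µM oleic acid). Control levels are given where they help to place a value, and PA+OA levels only for some leading genes. No group had BMS-309403 without palmitate, so a change that needs palmitate and one that does not cannot be told apart. The replicates are not stated to be separate cultures, so the p-values measure the spread between these libraries, which may be technical. Of the genes that passed, 9820 were protein-coding, 272 passed through the PA+BMS libraries alone and 115 through the PA libraries alone, and 31376 genes had no read in any of the 6. At the threshold, the third-highest of the 6 values was 1.0003 FPKM for CBWD1, which was kept, and 0.9998 FPKM for LRP12, which was not.

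Fatty acid-binding proteins are small cytosolic carriers that hold a long-chain fatty acid in an internal pocket and take it to membranes, enzymes and nuclear receptors. BMS-309403 was made as a ligand for the pocket of FABP4, the carrier of adipocytes and macrophages. Palmitate, a saturated fatty acid, is known in liver cells to load the endoplasmic reticulum (ER) membrane, to engage the integrated stress response through eIF2-alpha kinases and to activate fatty acid-sensing PPAR receptors, whose targets include ANGPTL4.

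The stated target was at the floor of detection. FABP4 (chromosome 8, 81478419 to 81483263) had 0.0429, 0.0864 and 0 FPKM in PA replicates 1 to 3 and 0, 0.0315 and 0 in PA+BMS, where 3 reads would have been worth up to 0.142. It had 4 reads over all 12 libraries. FABP1, the liver carrier, had no read in any library, which allows up to 0.0801 FPKM by counting error alone. Of the 10 hepatocyte markers checked, all 10 stayed under 1 FPKM in all 12 libraries, and their summed level was 0.0186 to 0.170 FPKM in PA and 0.0241 to 0.131 in PA+BMS, so a hepatocyte state was not visible in the transcripts and the cells are called by their label. Adipocyte, macrophage and endothelial markers were low too, with 5 of 5 adipocyte, 5 of 6 macrophage and 4 of 5 endothelial markers under 1 FPKM throughout. Stellate or fibroblast markers were higher, with 4 of 8 under 1 FPKM throughout and a summed level of 21.3 to 21.6 FPKM in PA and 15.2 to 16.9 in PA+BMS. Of the bile duct markers 6 of 7 were under 1 FPKM throughout, and with the other, KRT7, the summed level was 571 to 669 FPKM in PA and 140.0 to 185 in PA+BMS. What part such cells have in the results was not tested. Other carriers were present. FABP3, the heart-type carrier, was at 25.6, 23.6 and 21.9 FPKM in PA and 18.5, 16.9 and 15.5 in PA+BMS, and fell (log2 change -0.46, SE 0.15, adjusted p = 0.0225, limma), a call that was lost without PA replicates 1 or 2 or PA+BMS replicate 3 (adjusted p 0.0605 to 0.0762) and also once the trend with GC content and length was removed (log2 change -0.24, adjusted p = 0.217). It passed without both PA+BMS replicate 3 and PA+OA replicate 1 (adjusted p = 0.00413). FABP5, the epidermal-type carrier, was at 11.9, 11.01 and 8.66 FPKM in PA and 9.98, 10.9 and 10.7 in PA+BMS, and the groups overlapped (log2 change 0.011, 95% interval -0.27 to 0.29, adjusted p = 0.945).

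The 6 libraries held 17494963 to 19971190 whole reads each, recovered from the deposited values. The first principal component of the 12 libraries held 57.04% of the variance, and across genes its loadings rose with transcript GC content (Spearman's rho 0.710, a description over genes that share libraries). On it the PA libraries lay at 18.2, 27.8 and 16.1 and the PA+BMS libraries at -16.7, -19.3 and -50.9. PA+BMS replicate 3 thus stood apart from replicates 1 and 2, and the chi-square per gene between their reads was 66.3 and 63.6, against 3.63 between replicates 1 and 2. When genes were cut into 10 equal bins by GC content, the lowest bin was higher than the PA mean by a median of 0.37, 0.35 and 0.81 on the log2(FPKM + 1) scale in PA+BMS replicates 1, 2 and 3. In the highest bin the same medians were -0.50, -0.57 and -0.72. The tilt was therefore present in all 3 libraries and widest in replicate 3. In the controls the lowest bin was at 0.29, 0.46 and 0.43 and the highest at -0.25, -0.49 and -0.42, so PA+BMS replicates 1 and 2 lay near control replicates 2 and 3 in this respect. GC content and gene length explained 60.9% of the variance of log2 changes, and 55.6% with replicates 1 and 2 alone. Results are given as deposited, without PA+BMS replicate 3, and after each library's smooth trend against GC content and length had been subtracted; whether the tilt belongs to the cells or to library preparation was not tested.

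**Figure D1:**
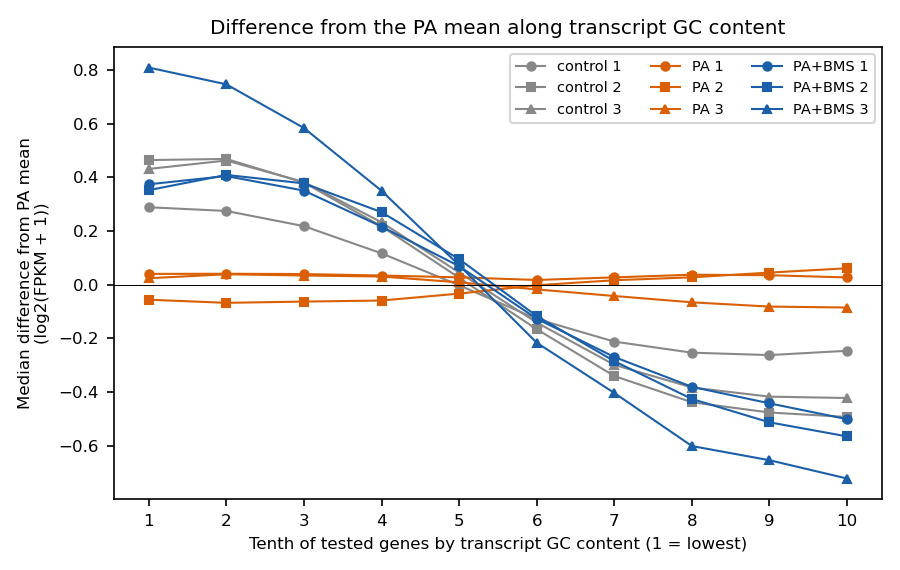
Median difference from the mean of the PA libraries (y axis, log2(FPKM + 1)) for 10 equal bins of the tested genes ordered by transcript GC content (x axis), with 1 line per library of control, PA and PA+BMS. All 3 PA+BMS lines run from above 0 to below 0, and replicate 3 is the steepest, from 0.81 to -0.72.

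Limma found 6435 of 11151 genes changed at an adjusted p of 0.05, 57.7% of those tested. Of these 2959 rose (26.5% of tested genes) and 3476 fell (31.2%), and 277 moved by 2-fold or more (85 rose, 0.762%, and 192 fell, 1.72%). These folds are of FPKM + 1, so they are too small for genes near the filter. The 3 values of each group did not overlap in 33.6% of tested genes with PA+BMS higher and in 38.2% with it lower, in 71.8% together. Genes that rose had a median GC content of 42.4% and genes that fell 58.3%. Without PA+BMS replicate 3, 1758 rose (15.8%) and 2114 fell (19.0%), 34.7% together, in the fit of all the other libraries, from which the later counts without that library come. The drop depended on the libraries that shared the fit. In all 6659 (59.7%) passed in a fit of the 6 PA and PA+BMS libraries alone, 6752 (60.6%) in that fit less PA+BMS replicate 3, and 6516 (58.4%) when PA+BMS replicate 3 and PA+OA replicate 1 were both left out. With the trend removed, 1135 rose (10.2%) and 1208 fell (10.8%), and 1591 of these 2343 (21.0%) had also passed in the same direction as deposited. Without PA replicate 2, 3934 of 11151 passed in all, 1773 that rose and 2161 that fell. Genes that passed alike as deposited, without PA+BMS replicate 3 in the fit of all other libraries and with the trend removed, called the 3 fits here, numbered 577 that rose (5.17% of tested genes) and 719 that fell (6.45%), 11.6% together. With the trend removed and without PA+BMS replicate 3 together, 435 and 506 passed, 3.90% and 4.54% of tested genes and 8.44% together. The deposited FPKM summed to 320299 to 355834 per library in PA and 258747 to 264111 in PA+BMS. Setting these sums equal moved the median of all genes from -0.053 to 0.25, and 4463 genes then rose and 1206 fell, so directions below are relative to the deposited scaling. List counts below stand beside 26.5% of all tested genes that rose and 31.2% that fell as deposited. Without PA+BMS replicate 3 these shares were 15.8% and 19.0%, and with the trend removed 10.2% and 10.8%. List counts without PA replicate 2 stand beside the 1773 and 2161 of 11151 genes that rose and fell in that fit.

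The leading rises, taken among genes that passed in all 3 fits, included redox, xenobiotic and nuclear receptor genes. TXNIP, which binds thioredoxin and restrains glucose uptake (chromosome 1, 145992435 to 145996600), was at 1.57, 1.23 and 1.52 FPKM in PA and 5.78, 6.33 and 5.21 in PA+BMS. All PA+BMS values were above all PA values, which the naming rule required, and also above the control range of 3.68 to 4.62. This was the largest rise under the naming rule (log2 change 1.47, SE 0.12, adjusted p = 4.84e-05), and it was 1.25 with the trend removed. In PA+OA TXNIP was at 4.75, 5.69 and 6.11 FPKM, also above all PA values, so a level above PA was not particular to PA+BMS. NCOA7, a nuclear receptor coactivator with an oxidation-resistance domain, went from 5.07, 3.90 and 5.12 to 12.7, 11.9 and 18.6 FPKM (log2 change 1.42, SE 0.17, adjusted p = 0.000576). Its PA+OA values, 9.55, 11.1 and 13.3 FPKM, were also above all PA values. TIPARP, an ADP-ribosyltransferase that the aryl hydrocarbon receptor induces, was at 3.33, 2.20 and 3.54 and then 8.24, 8.05 and 12.2 FPKM (log2 change 1.38, SE 0.20, adjusted p = 0.00158). NR3C1, the glucocorticoid receptor, was at 3.37, 2.31 and 3.31 in PA and 7.46, 6.87 and 13.9 in PA+BMS (log2 change 1.33, SE 0.22, adjusted p = 0.00278). In the last 3 genes PA+BMS replicate 3 held the highest value, and the fit that left it out gave 1.23, 1.20 and 1.04. ABCC2, the canalicular organic anion exporter MRP2, rose from 5.66, 4.10 and 6.09 to 12.3, 12.5 and 17.1 FPKM (log2 change 1.25, SE 0.18, adjusted p = 0.00162), and the controls held 10.95, 12.8 and 12.1. SLC7A11, the cystine importer, rose from 8.83, 7.02 and 9.30 to 17.3, 14.6 and 32.8 (log2 change 1.19, SE 0.25, adjusted p = 0.00536). It overlaps an antisense gene, and without a stated strand setting their reads cannot be told apart. HSP90AA1, the inducible cytosolic HSP90, was at 89.6, 53.9 and 83.2 FPKM in PA and 135, 134 and 290.4 in PA+BMS, with replicate 3 the highest (log2 change 1.23, SE 0.30, adjusted p = 0.00757, and a log2 change of 0.86 without it), and its reads can be shared with its processed pseudogenes. The imprinted, retrotransposon-derived PEG10 rose by 1.31, the DNA glycosylase NEIL3 by 1.24 and TRAK2, an adaptor of mitochondrial transport, by 1.23 on the log2 scale. With the trend removed and PA+BMS replicate 3 left out together, PEG10, HSP90AA1 and SLC7A11 missed the threshold (adjusted p 0.0729, 0.0945 and 0.0570). The other leading rises still passed.

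The 10 leading falls included epithelial, interferon and alkaline phosphatase genes. TGM2, a transglutaminase that cross-links proteins (chromosome 20, 38127387 to 38166578), was at 43.6, 42.8 and 38.4 FPKM in PA and 9.33, 9.13 and 6.79 in PA+BMS. The PA+BMS values were also below the control range of 28.7 to 34.6, and TGM2 had the largest fall under the rule (log2 change -2.19, SE 0.17, adjusted p = 3.47e-05). Its PA+OA values, 40.8, 27.04 and 26.3 FPKM, were all above PA+BMS. ALPI, intestinal alkaline phosphatase, fell from 415, 411 and 353 to 93.8, 91.7 and 81.1 FPKM (log2 change -2.13, SE 0.16, adjusted p = 3.28e-05). Its close relative ALPP, placental alkaline phosphatase, fell from 680.3, 629.6 and 550.4 to 209, 201 and 188 (log2 change -1.63, SE 0.20, adjusted p = 0.000779), and reads shared by this near-identical family are uncertain. Keratin 7, a simple-epithelial and bile duct marker encoded by KRT7, was at 605, 668 and 570.2 FPKM in PA and 184, 179 and 139 in PA+BMS (log2 change -1.88, SE 0.21, adjusted p = 0.000533). Keratin 17, encoded by KRT17, was at 1215, 1231 and 1079 in PA and 420.4, 392 and 296 in PA+BMS (log2 change -1.68, SE 0.22, adjusted p = 0.00108). KRT7 was the only 1 of 7 bile duct markers that passed the filter, and the summed level of these markers was 477 to 564 FPKM in control, 571 to 669 in PA and 140.0 to 185 in PA+BMS. In bulk RNA, fewer cells that carry such a marker and less of its RNA per cell cannot be told apart. CLDN7, a tight junction claudin, fell from 17.5, 17.1 and 15.6 to 4.52, 4.29 and 3.76 FPKM (log2 change -1.77, SE 0.18, adjusted p = 0.000247). The focal adhesion protein tensin 4, TNS4, was at 27.8, 28.9 and 34.5 in control, 14.3, 12.1 and 10.7 in PA and 2.08, 2.61 and 2.90 in PA+BMS (log2 change -1.92, SE 0.13, adjusted p = 2.88e-05), the lowest group of the 3. Its PA+OA values, 7.66, 6.48 and 7.14 FPKM, lay between PA and PA+BMS. IL11, a cytokine of the IL-6 family, was at 4.40, 3.39 and 3.66 in control, 9.59, 9.24 and 8.86 in PA and 1.76, 1.95 and 1.85 in PA+BMS (log2 change -1.84, SE 0.11, adjusted p = 1.14e-05), so that PA+BMS lay below control as well. Its PA+OA values, 6.08, 5.17 and 4.72 FPKM, lay below PA and above control. OASL and ISG15, of the interferon response, complete the rule and are described with their group. With the trend removed the 10 falls lay between -1.90 and -1.01, and the 10 rises between 0.62 and 1.25.

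**Figure D2:**
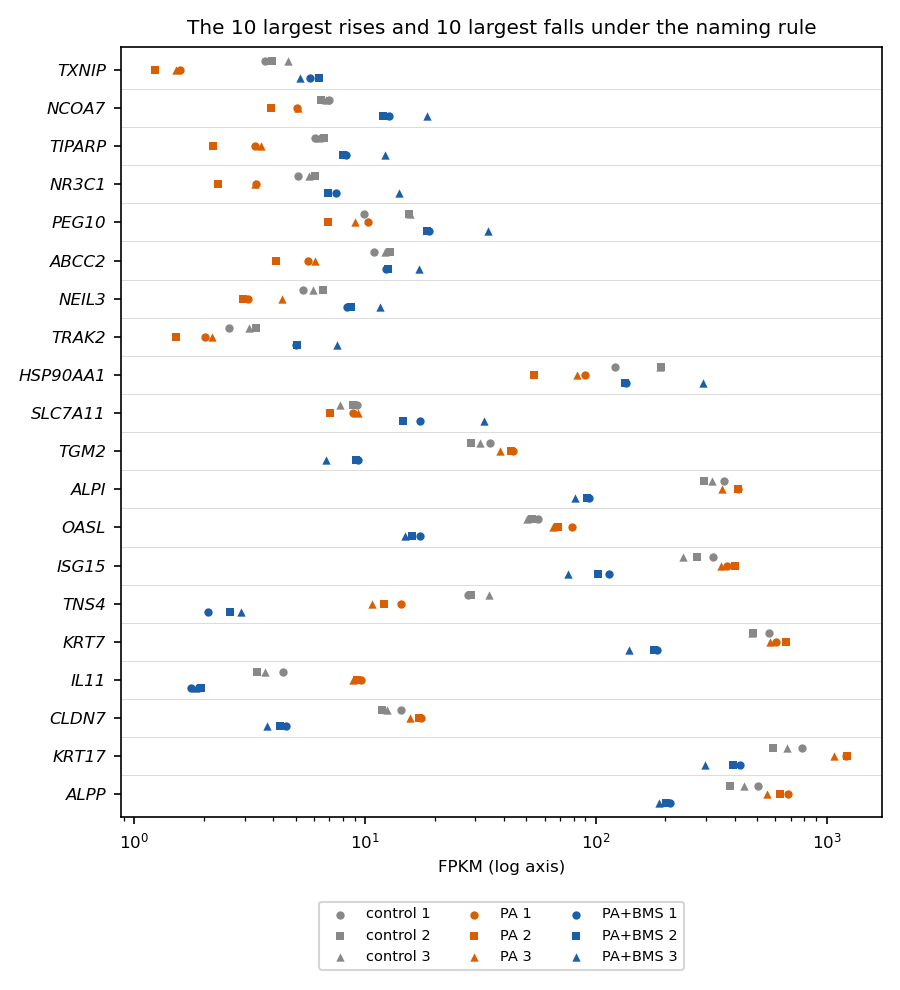
FPKM (x axis, log scale) of the 10 largest rises and the 10 largest falls under the naming rule, 1 point per library of control (grey), PA (orange) and PA+BMS (blue). The rule required that the 3 PA+BMS points lie on 1 side of the 3 PA points, and for TXNIP they lie at 5.21 to 6.33 FPKM against 1.23 to 1.57.

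Among genes that PPAR receptors are known to drive, ANGPTL4 fell, while PDK4 and CPT1A did not pass the test. ANGPTL4, a secreted inhibitor of lipoprotein lipase (chromosome 19, 8363289 to 8374373), was at 7.39, 7.56 and 7.04 FPKM in control, 99.4, 115 and 101 in PA and 54.95, 50.99 and 36.6 in PA+BMS. It fell against PA (log2 change -1.15, SE 0.20, adjusted p = 0.00327), and all PA+BMS values stayed above all control values. With the trend removed ANGPTL4 still passed, at a smaller log2 change of -0.50 (adjusted p = 0.00744). PDK4, which restrains pyruvate oxidation, was at 36.98, 35.8 and 43.3 FPKM in PA and 43.3, 43.1 and 69.7 in PA+BMS (log2 change 0.39, 95% interval -0.17 to 0.94, adjusted p = 0.206). CPT1A, the gatekeeper of fatty acid entry into mitochondria, was at 41.4, 36.4 and 35.9 in PA and 40.9, 42.02 and 50.6 in PA+BMS (log2 change 0.22, 95% interval -0.061 to 0.51, adjusted p = 0.155). PPARG, a fatty acid receptor, rose from 6.70, 5.84 and 6.87 to 8.92, 10.1 and 8.81 FPKM (log2 change 0.46, SE 0.10, adjusted p = 0.00630), and with the trend removed it no longer passed (log2 change 0.22, adjusted p = 0.103). Of 28 tested genes of fatty acid oxidation and PPAR targets, 4 rose and 9 fell (median -0.076), shares near or below the 26.5% and 31.2% of all tested genes, whose median was -0.053. The counts were 4 and 5 without PA+BMS replicate 3, 4 and 7 without PA replicate 2, 3 and 3 with the trend removed and 1 and 1 with the trend removed and replicate 3 left out. The flavoprotein dehydrogenase ETFDH rose by 0.71 and the medium-chain dehydrogenase ACADM by 0.55, while the mitochondrial carrier UCP2 fell by 0.63 on the log2 scale. The last 2 lost the call with the trend removed. UCP2 passed the filter through the PA libraries alone, a route open only to genes lower in PA+BMS.

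In fatty acid binding and uptake 5 rose and 6 fell among 18 tested of 31 genes (median 0.020), and 4 and 3 without PA+BMS replicate 3, 4 and 3 without PA replicate 2 and 2 and 2 with the trend removed. These shares were near the 26.5% and 31.2% of all tested genes as deposited, and near the 10.2% and 10.8% with the trend removed. ACSL5, a long-chain acyl-CoA synthetase, was at 7.19, 6.02 and 7.16 FPKM in PA and 2.77, 3.20 and 3.71 in PA+BMS (log2 change -0.88, SE 0.12, adjusted p = 0.000984), and the fall was -1.13 with the trend removed. ACBD5, which tethers peroxisomes to the ER, rose by 1.02, the sterol carrier SCP2 rose by 0.58, and the retinoic acid carrier CRABP2 fell from 7.996, 7.73 and 7.19 to 4.10, 4.36 and 1.97. SCP2 had a log2 change of 0.034 with the trend removed. CD36, a fatty acid transporter, lay at 0.0567 to 0.104 FPKM, and PLIN2, a lipid droplet coat protein, at no more than 0.0335 FPKM, so neither was tested. In the lipid droplet and triglyceride list, 3 rose and 8 fell of 18 (median -0.21; 3 and 4 without PA+BMS replicate 3, 2 and 4 without PA replicate 2 and 4 and 5 with the trend removed). GPAT3, which starts glycerolipid synthesis, rose from 1.09, 1.62 and 1.35 to 3.37, 3.48 and 3.02 FPKM (log2 change 0.87, SE 0.12, adjusted p = 0.00148), and the phosphatidate phosphatase LPIN1 from 3.11, 2.95 and 3.21 to 6.02, 6.08 and 7.48 (log2 change 0.87, SE 0.18, adjusted p = 0.00481). MGLL, monoglyceride lipase, fell from 8.89, 7.20 and 6.85 to 2.81, 2.94 and 3.39 (log2 change -1.09, SE 0.12, adjusted p = 0.000372), and DGAT1, which makes triglyceride, from 29.8, 30.1 and 26.8 to 17.04, 16.8 and 13.3 (log2 change -0.84, SE 0.16, adjusted p = 0.00401). These 4 genes passed in all 3 fits.

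Sterol and fatty acid synthesis genes moved both ways, and in each list most tested members did not rise. HMGCS1, an early enzyme of sterol synthesis, was at 3.69, 2.82 and 3.19 FPKM in PA and 6.77, 6.50 and 8.85 in PA+BMS (log2 change 0.98, SE 0.19, adjusted p = 0.00423). IDI1, isopentenyl diphosphate isomerase, rose from 16.2, 18.9 and 14.98 to 31.2, 31.9 and 31.98 (log2 change 0.89, SE 0.11, adjusted p = 0.000826), and the controls were at 15.1, 17.8 and 16.9. The methyl sterol oxidase MSMO1 and the desaturase SC5D rose by 0.88 and 0.87. INSIG1, the sterol-regulated ER anchor, rose from 59.9, 62.1 and 60.05 to 93.2, 94.6 and 92.4 FPKM (log2 change 0.61, SE 0.11, adjusted p = 0.00316), and the controls were at 44.5, 44.3 and 44.9. Over the cholesterol list 11 rose and 8 fell of 28, against 11 and 4 without PA+BMS replicate 3, 11 and 6 without PA replicate 2 and 7 and 0 with the trend removed, where 10.2% of all tested genes rose and 10.8% fell. Its median was -0.18 as deposited and 0.083 with the trend removed, and 0.039 under quantile normalization. In fatty acid synthesis 3 rose and 5 fell of 16 (median -0.27; 1 and 3 without PA+BMS replicate 3, 2 and 3 without PA replicate 2 and 2 and 0 with the trend removed). The NADPH-producing malic enzyme ME1 rose from 15.6, 14.8 and 14.3 to 23.97, 26.2 and 31.5 FPKM (log2 change 0.82, SE 0.15, adjusted p = 0.00347). FASN, fatty acid synthase, fell from 183, 161 and 123 to 96.6, 88.6 and 98.6 (log2 change -0.69, SE 0.18, adjusted p = 0.00895), and its regulator SREBF1 and the acetyl-CoA synthetase ACSS2 fell by 0.71 and 0.60 on the log2 scale. These 3 falls missed the threshold with the trend removed (adjusted p 0.0552 to 0.0773). SCD, the stearoyl-CoA desaturase, was at 358, 284 and 286 FPKM in PA and 279, 284 and 354 in PA+BMS (log2 change -0.017, 95% interval -0.37 to 0.34, adjusted p = 0.938). Of the LXR list, which answers to oxysterols, 7 of 14 were tested and 1 rose and 3 fell, with the ubiquitin ligase gene MYLIP up by 0.54, and the receptors NR1H2 and NR1H3 down by 0.80 and 0.60. MYLIP passed the filter through the PA+BMS libraries alone, a route open only to genes higher there. The fall of NR1H3 was lost without PA replicates 1 or 2 or PA+BMS replicate 3 (adjusted p 0.0625 to 0.0714). It passed without both PA+BMS replicate 3 and PA+OA replicate 1 (adjusted p = 0.00837). The LXR list with the trend removed counted 1 and 0, and both NR1H2 (log2 change -0.22, adjusted p = 0.0785) and NR1H3 (log2 change -0.13, adjusted p = 0.449) missed the threshold. The sterol exporter ABCG1 lay at 0.391 to 0.522 FPKM in PA and at 0.0741 to 0.111 in PA+BMS and was not tested.

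**Figure D3:**
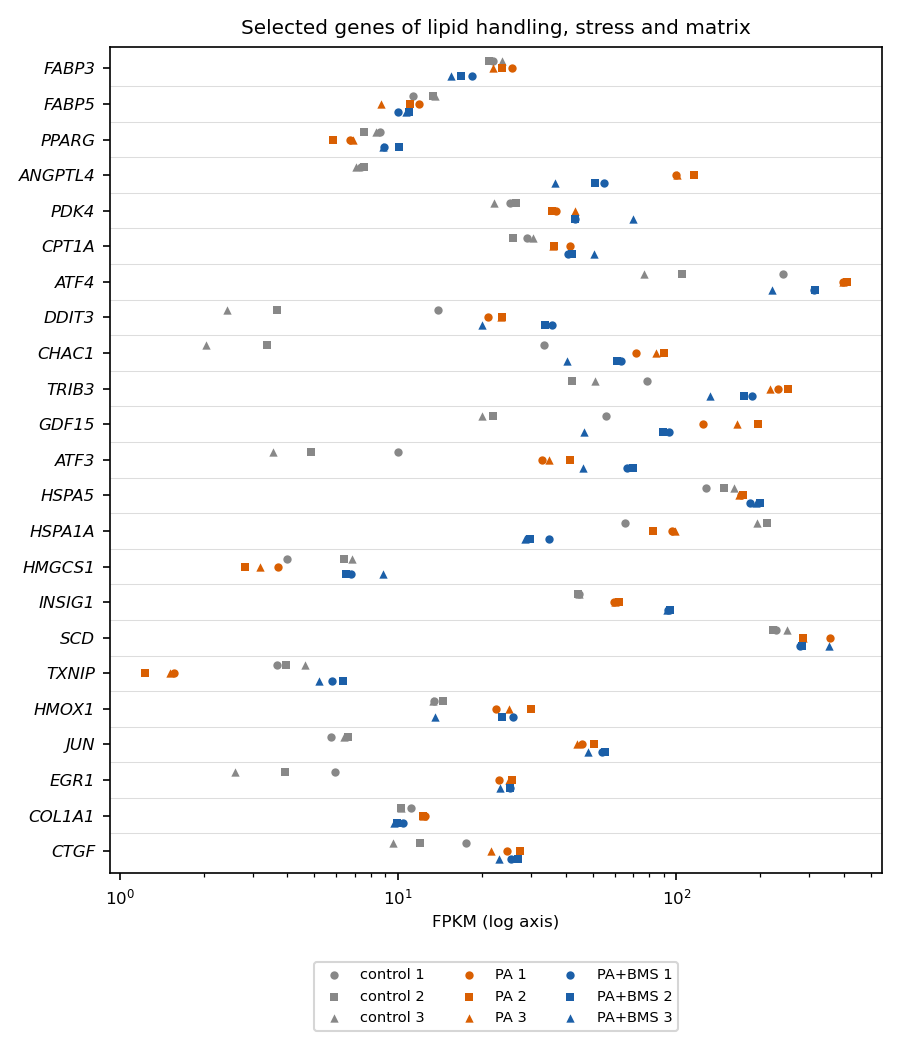
FPKM (x axis, log scale) of selected genes of lipid handling, stress and matrix, 1 point per library of control (grey), PA (orange) and PA+BMS (blue). ANGPTL4 in PA+BMS, at 36.6 to 54.95, lies between control and PA, INSIG1 lies above both, and EGR1, CTGF and FABP5 overlap with PA.

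Genes of the integrated stress response moved both ways, and most of the main markers did not pass the test. This programme follows phosphorylation of eIF2-alpha and raises ATF4 and its targets. ATF4 was at 241, 105 and 76.3 FPKM in control, 396, 410.2 and 397 in PA and 312, 316 and 221 in PA+BMS (log2 change -0.52, 95% interval -1.22 to 0.18, adjusted p = 0.179). DDIT3, which encodes CHOP, was at 20.97, 23.7 and 23.4 in PA and 35.9, 33.7 and 20.01 in PA+BMS (log2 change 0.34, 95% interval -0.55 to 1.23, adjusted p = 0.485), and it overlaps MARS, so shared reads are uncertain. The pseudokinase TRIB3 was at 231, 251 and 217 FPKM in PA and 187, 176 and 133 in PA+BMS (log2 change -0.51, 95% interval -1.04 to 0.023, adjusted p = 0.0897). CHAC1, which degrades glutathione, was at 71.8, 90.6 and 84.6 in PA and 63.5, 61.4 and 40.3 in PA+BMS (log2 change -0.59, 95% interval -2.01 to 0.82, adjusted p = 0.443), an interval that includes both a fall of more than 2-fold and a rise. In ATF4, TRIB3 and CHAC1 all PA+BMS values lay below all PA values. These intervals rest on the spread within all 4 groups, which includes the controls, so a missed threshold is not a lack of change. ATF3, a stress transcription factor, rose from 33.04, 41.5 and 34.9 to 66.7, 69.9 and 46.3 FPKM (log2 change 0.71, SE 0.26, adjusted p = 0.0360), and the stress cytokine GDF15 fell from 125, 197 and 165 to 93.96, 89.3 and 46.7 (log2 change -1.11, SE 0.37, adjusted p = 0.0228). ATF3 passed in all 3 fits but was lost without PA replicates 1, 2 or 3 or PA+BMS replicates 1 or 2 (adjusted p 0.0558 to 0.105), and GDF15 was lost without PA replicates 2 or 3 or PA+BMS replicate 3 (adjusted p 0.0539 to 0.101). The call of ATF3 was also lost with the trend removed and PA+BMS replicate 3 left out together. Of 37 tested members 8 rose and 11 fell (median -0.27), and 7 and 7 without PA+BMS replicate 3, 6 and 8 without PA replicate 2 and 3 and 3 with the trend removed (median 0.085), in shares below those of all tested genes as deposited and with the trend removed. PA+BMS was higher without overlap in 8 of the 37 and lower in 18, beside 33.6% and 38.2% of all tested genes. Besides SLC7A11, the tRNA exporter XPOT rose from 18.6, 15.3 and 21.1 to 33.6, 33.8 and 51.4 FPKM (log2 change 1.06, SE 0.20, adjusted p = 0.00401), the lipoprotein receptor VLDLR rose by 0.64 and the transcription factor ATF5 fell by 0.78 on the log2 scale. VLDLR (log2 change 0.20, adjusted p = 0.149), ATF5 (log2 change -0.16, adjusted p = 0.166) and GDF15 (log2 change -0.48, adjusted p = 0.214) missed the threshold with the trend removed.

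The tRNA synthetases, which charge tRNAs and are in part targets of ATF4, split in direction. Of 20, 8 rose and 10 fell (median -0.19), and 5 and 8 without PA+BMS replicate 3, 5 and 8 without PA replicate 2 and 5 and 4 with the trend removed. WARS, the tryptophan enzyme and an interferon-inducible one, fell from 63.6, 58.7 and 64.4 to 35.9, 38.2 and 37.6 FPKM (log2 change -0.72, SE 0.095, adjusted p = 0.000984). NARS rose from 26.2, 21.3 and 28.8 to 39.1, 40.97 and 48.6, and TARS and EPRS rose by 0.84 and 0.96. In the ER chaperone and unfolded protein response list 7 rose and 7 fell of 29 (median -0.080; 4 and 7 without PA+BMS replicate 3, 3 and 7 without PA replicate 2 and 2 and 6 with the trend removed). As deposited these shares were below those of all tested genes. HSPA5, the main ER chaperone, was at 171, 173 and 168 FPKM in PA and 184, 200.3 and 193 in PA+BMS (log2 change 0.17, 95% interval -0.16 to 0.50, adjusted p = 0.338). SEL1L, of ER-associated degradation, rose by 0.84, and SDF2L1, CRELD2 and the disulfide isomerase P4HB fell by 0.97, 0.69 and 0.65. Heat shock genes also went both ways (8 rose and 8 fell of 26; 3 and 6 without PA+BMS replicate 3, 4 and 7 without PA replicate 2 and 2 and 3 with the trend removed), in shares near the 26.5% and 31.2% of all tested genes. HSPA1A, the inducible HSP70, was at 65.1, 212 and 195 FPKM in control, 96.2, 82.2 and 98.9 in PA and 34.8, 29.7 and 28.6 in PA+BMS, and its fall (log2 change -1.55, SE 0.33, adjusted p = 0.00540) opposed the rise of HSP90AA1. With the trend removed in the fit of 12 libraries HSPA1A missed the threshold (log2 change -0.94, adjusted p = 0.0945), and reads shared with its near-identical copy HSPA1B are uncertain. In the fit of the 6 PA and PA+BMS libraries alone HSPA1A passed as deposited (SE 0.12, adjusted p = 0.00142, limma) and with the trend removed. HSP90AA1 missed the threshold in those 6 libraries with the trend removed. The regulator HSF2 rose by 0.63 and the collagen chaperone SERPINH1 fell by 0.62. HSF2 (log2 change 0.29, adjusted p = 0.0730), SERPINH1 (log2 change -0.21, adjusted p = 0.0733) and CRELD2 (log2 change -0.23, adjusted p = 0.0919) missed the threshold with the trend removed. The medians of the ER, heat shock and tRNA synthetase lists, all negative as deposited, were positive under quantile normalization (0.23, 0.22 and 0.20).

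Immediate early genes, the first transcription factors induced by kinase signalling, went both ways, and JUN and EGR1 did not pass the test as deposited. JUN was at 5.72, 6.61 and 6.41 FPKM in control, 45.7, 50.6 and 43.8 in PA and 54.1, 55.4 and 48.1 in PA+BMS (log2 change 0.17, 95% interval -0.081 to 0.41, adjusted p = 0.219), and EGR1 at 23.1, 25.8 and 25.1 in PA and 25.3, 25.2 and 23.3 in PA+BMS (log2 change -0.00343, 95% interval -0.42 to 0.42, adjusted p = 0.989). EGR1 with the trend removed was at 0.45, which did not pass in the fit of 12 libraries (adjusted p = 0.137) and passed in that of the 6 libraries alone (adjusted p = 0.0136). KLF6 rose from 7.47, 6.78 and 6.33 to 11.6, 12.4 and 15.01 (log2 change 0.83, SE 0.18, adjusted p = 0.00581), while FOSL1, an AP-1 partner of JUN, fell from 30.3, 32.2 and 25.3 to 17.2, 15.1 and 11.7 (log2 change -0.96, SE 0.16, adjusted p = 0.00284). JUNB fell by 0.94 and SRF, the serum response factor, by 0.76 on the log2 scale. JUNB missed the threshold with the trend removed (log2 change -0.26, adjusted p = 0.0517). The list counted 4 and 9 of 24 that rose and fell as deposited and 3 and 6 without PA+BMS replicate 3, 1 and 6 without PA replicate 2 and 7 and 3 with the trend removed, and its median was -0.083 as deposited and 0.23 with the trend removed. JUN then passed, at 0.64 (adjusted p = 0.0155). In MAP kinase feedback 3 rose and 5 fell of 14 (median -0.030; 1 and 3 without PA+BMS replicate 3, 1 and 2 without PA replicate 2 and 2 and 2 with the trend removed). The shares as deposited were near those of all tested genes. The phosphatase DUSP16 rose by 0.70, and ETV4, a transcription factor downstream of ERK, fell from 18.9, 20.03 and 18.4 to 9.58, 9.46 and 8.42 FPKM (log2 change -0.99, SE 0.18, adjusted p = 0.00331). The nuclear phosphatases DUSP2 and DUSP5 fell by 0.99 and 0.53, and both missed the threshold with the trend removed. DUSP5 was also lost without PA replicate 2 or PA+BMS replicate 3 (adjusted p 0.0510 to 0.0542). It passed without both PA+BMS replicate 3 and PA+OA replicate 1 (adjusted p = 0.0285).

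The 4 leading interferon-stimulated genes were lower in PA+BMS than in PA and in control. ISG15 encodes a ubiquitin-like protein, OASL an antiviral OAS-like protein, IFITM1 a membrane protein that restricts viral entry and ISG20 an exonuclease. Such genes are driven through interferon response elements, and the 250 bases before the RefSeq start of 3 of them are shown because each holds that element, searched as GAAA, any 2 bases and GAAA on both strands and marked in capitals. The pair in ISG15 overlaps. OASL has no entry in the promoter table used and was not searched.
ISG15, GRCh38.p14, chr1:1013247-1013496, plus strand: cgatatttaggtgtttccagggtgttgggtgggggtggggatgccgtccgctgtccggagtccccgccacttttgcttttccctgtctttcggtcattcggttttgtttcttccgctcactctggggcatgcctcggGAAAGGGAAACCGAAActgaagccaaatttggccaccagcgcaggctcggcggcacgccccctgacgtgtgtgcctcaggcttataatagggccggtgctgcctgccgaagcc
ISG20, GRCh38.p14, chr15:88638766-88639015, plus strand: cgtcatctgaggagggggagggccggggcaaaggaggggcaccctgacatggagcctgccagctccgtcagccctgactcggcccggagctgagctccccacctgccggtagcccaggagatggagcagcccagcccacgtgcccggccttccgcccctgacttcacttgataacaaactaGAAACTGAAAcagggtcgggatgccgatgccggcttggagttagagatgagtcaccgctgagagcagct
IFITM1, GRCh38.p14, chr11:313790-314039, plus strand: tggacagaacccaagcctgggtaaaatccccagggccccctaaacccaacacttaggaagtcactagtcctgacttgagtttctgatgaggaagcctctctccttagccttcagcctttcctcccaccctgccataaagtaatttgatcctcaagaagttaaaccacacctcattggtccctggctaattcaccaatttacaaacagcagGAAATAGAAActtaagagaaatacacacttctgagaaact
These letters were searched after the values had been seen. They stood in 12 of the 16 promoters of tested interferon genes, in 2.10% of all 8365 promoters matched, in 3.03% of those of genes that fell in all 3 fits and in 1.73% of those that rose in all 3. The set that fell holds the 3 genes shown, so its share is not separate from theirs. Among other named genes the letters also stood before ABCC2 and TXNRD1, which rose, and before CLDN7, GLUL and ATF5, which fell as deposited. A match is a description of the letters, not a bound site.

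ISG15 (chromosome 1, 1001138 to 1014540) was at 323, 276 and 239.7 FPKM in control, 372, 402 and 348 in PA and 114, 102 and 75.8 in PA+BMS (log2 change -1.95, SE 0.23, adjusted p = 0.000582). The annotated gene starts before the RefSeq start used above and overlaps other expressed genes, so its reads may be shared. OASL was at 56.2, 52.9 and 50.3 in control, 78.8, 68.6 and 65.1 in PA and 17.3, 15.9 and 14.8 in PA+BMS (log2 change -2.07, SE 0.16, adjusted p = 3.28e-05). IFITM1 fell from 81.1, 90.97 and 76.5 to 40.7, 40.4 and 25.7 (log2 change -1.22, SE 0.22, adjusted p = 0.00327), and its reads may be shared with the near-identical IFITM2. ISG20 fell from 1.76, 1.78 and 1.81 to 0.488, 0.371 and 0.315 FPKM (log2 change -1.0004, SE 0.11, adjusted p = 0.000533). ISG20 passed the filter through the PA libraries alone, a route open only to genes lower in PA+BMS. In each of these 4 genes the PA+BMS values lay below every PA and every control value. Of 21 tested members of 29, 2 rose and 10 fell (median -0.29). The counts were 1 and 8 without PA+BMS replicate 3, 1 and 7 with the trend removed and 0 and 7 with both, where 4.54% of all tested genes fell. Relative to the median of all tested genes the list's median was -0.24 as deposited, -0.25 with equal sums and -0.34 under quantile normalization.

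NF-kB and inflammatory genes gave 1 rise and 9 falls among 17 tested of 25 (median -0.47), but 0 and 7 without PA+BMS replicate 3, 0 and 7 without PA replicate 2 and 0 and 2 with the trend removed. Of all tested genes 31.2% fell as deposited and 10.8% with the trend removed, where the list's share of falls lay near the latter. IL11 led, as given above. The 250 bases before its start are shown because they hold the AP-1 element, searched as TGANTCA on both strands and marked in capitals.
IL11, GRCh38.p14, chr19:55370464-55370713, minus strand: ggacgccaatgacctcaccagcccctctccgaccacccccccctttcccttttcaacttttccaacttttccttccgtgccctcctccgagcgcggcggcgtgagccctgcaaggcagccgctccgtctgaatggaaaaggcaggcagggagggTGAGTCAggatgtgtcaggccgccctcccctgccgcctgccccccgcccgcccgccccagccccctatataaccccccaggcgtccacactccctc
That element stood in 3.54% of all promoters matched, 5.17% of those of genes that fell in all 3 fits and 2.59% of those that rose. Other motifs were searched in the same sets. In the same order the E-box stood in 9.30%, 9.09% and 9.50%, and the CRE in 3.26%, 3.39% and 3.24%. The ATF4 with C/EBP motif stood in 1.28%, 1.07% and 2.16%, the heat shock element in 0.263%, 0.178% and 0%, and the ER stress element in 0.13%, 0% and 0%. No difference between these shares was tested. LIF, another IL-6 family cytokine, fell from 5.08, 5.65 and 5.49 to 3.08, 3.02 and 2.95 FPKM (log2 change -0.67, SE 0.10, adjusted p = 0.00197), near the control values of 3.11, 3.59 and 3.15. TNFAIP2 and the subunit gene NFKB2 fell by 0.68 and 0.62. LIF, TNFAIP2 and NFKB2 missed the threshold with the trend removed.

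Of the p53 and apoptosis list 5 rose and 8 fell among 22 (median -0.19; 3 and 6 without PA+BMS replicate 3, 2 and 6 without PA replicate 2 and 2 and 4 with the trend removed). The shares as deposited were near the 26.5% and 31.2% of all tested genes. CDKN1A, the p21 cell cycle inhibitor, was at 67.8, 47.8 and 48.2 FPKM in control, 209, 238 and 198 in PA and 104, 96.6 and 69.1 in PA+BMS (log2 change -1.26, SE 0.20, adjusted p = 0.00226), so it lay between control and PA. PHLDA3, a p53-induced AKT inhibitor, fell from 43.8, 46.8 and 39.5 to 23.2, 20.9 and 17.4 (log2 change -1.05, SE 0.19, adjusted p = 0.00335), below control. BCL2L1, which encodes the survival protein BCL-XL, fell by 0.80, and the ribonucleotide reductase subunit RRM2B rose by 0.96. Cell cycle genes counted 9 and 9 of 35 that rose and fell as deposited and 9 and 4 without PA+BMS replicate 3, 8 and 7 without PA replicate 2 and 8 and 1 with the trend removed. Of all tested genes 26.5% rose and 31.2% fell as deposited, and 10.2% and 10.8% with the trend removed. The mitotic checkpoint kinase BUB1 rose from 6.64, 5.71 and 7.15 to 13.4, 12.99 and 18.8 FPKM (log2 change 1.09, SE 0.16, adjusted p = 0.00162), and its partner BUB1B by 1.09, the topoisomerase TOP2A by 1.10 and the reductase subunit RRM1 by 0.80. These 4 passed in all 3 fits, and their control levels (9.27 to 12.4 for BUB1) were above PA as well. With the trend removed and PA+BMS replicate 3 left out together, TOP2A and RRM1 missed the threshold (adjusted p 0.0567 and 0.0556). Among 17 tested histone genes of 27, 3 rose and 4 fell (median -0.087; 3 and 3 without PA+BMS replicate 3, 0 and 3 without PA replicate 2 and 2 and 0 with the trend removed), with HIST1H1C down by 0.99, HIST3H2A by 1.08 and H2AFX by 0.79, and HIST1H2BC, at 1.29, 0.940 and 0.843 FPKM in PA and 1.51, 2.16 and 1.93 in PA+BMS, up by 0.50. HIST1H1C (log2 change -0.37, adjusted p = 0.0906), HIST3H2A (log2 change -0.46, adjusted p = 0.0529) and H2AFX (log2 change -0.12, adjusted p = 0.465) missed the threshold with the trend removed. The rise of HIST1H2BC was lost without PA replicates 2 or 3 or PA+BMS replicate 2 (adjusted p 0.0558 to 0.0568). Most replication-dependent histone RNAs lack a poly(A) tail, and these libraries were made from RNA bound to oligo-dT beads.

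Genes of the NRF2 antioxidant programme rose in part. NRF2 is released from KEAP1 by electrophiles and raises thioredoxin and glutathione enzymes. TXNRD1, thioredoxin reductase, rose from 232, 242 and 244 to 404, 444 and 446 FPKM (log2 change 0.85, SE 0.14, adjusted p = 0.00245), above the controls at 288, 312 and 316. GCLM, the modifier subunit of glutathione synthesis, rose from 10.4, 11.1 and 11.02 to 18.4, 20.1 and 20.04 (log2 change 0.79, SE 0.13, adjusted p = 0.00241), and with the trend removed it missed the threshold (log2 change 0.28, adjusted p = 0.0617). HMOX1, heme oxygenase, was at 22.5, 30.02 and 25.03 in PA and 25.9, 23.6 and 13.6 in PA+BMS (log2 change -0.33, 95% interval -0.80 to 0.15, adjusted p = 0.213), with replicate 3 the lowest. HMOX1 was higher and passed with the trend removed and that library left out (log2 change 0.46, adjusted p = 0.0426). The exporter ABCC3 fell from 30.9, 31.9 and 31.3 to 18.9, 18.5 and 18.6 FPKM (log2 change -0.72, SE 0.10, adjusted p = 0.00108), opposite to its relative ABCC2. Of 28 members 9 rose and 7 fell (median -0.13), and 9 and 4 without PA+BMS replicate 3, 9 and 5 without PA replicate 2 and 11 and 4 with the trend removed (median 0.26), against 10.2% of all tested genes that rose there. Among 7 tested aryl hydrocarbon receptor genes 4 rose and 1 fell (median 0.43; 3 and 1 without PA+BMS replicate 3, 3 and 1 without PA replicate 2 and 3 and 0 with the trend removed), with CYP1B1, a cytochrome P450, at 0.298, 0.321 and 0.536 FPKM in PA and 1.20, 1.13 and 2.12 in PA+BMS (log2 change 0.82, SE 0.16, adjusted p = 0.00420), the partner ARNT up by 0.43 and the dehydrogenase ALDH3A1 down by 0.74. CYP1A1, the classical target, lay at 0.212 to 0.346 FPKM in both groups and was not tested. Glucocorticoid genes gave 4 and 3 of 11 that rose and fell (1 and 1 without PA+BMS replicate 3, 2 and 1 without PA replicate 2 and 2 and 2 with the trend removed), where KLF9 rose by 0.56 beside NR3C1, and glutamine synthetase GLUL fell by 0.41. The rise of KLF9 was lost without PA+BMS replicate 3 (adjusted p = 0.0565) and with the trend removed (adjusted p = 0.138). It passed without both PA+BMS replicate 3 and PA+OA replicate 1 (adjusted p = 0.0271). The fall of ALDH3A1 was also lost with the trend removed (adjusted p = 0.147). CYP1B1 and KLF9 passed the filter through the PA+BMS libraries alone, a route open only to genes higher there. Metallothioneins and zinc genes gave 2 and 2 of 7 (0 and 1 with the trend removed, and 0 and 0 without PA+BMS replicate 3, when 0 were higher and 2 lower in limma at an unadjusted p under 0.05). MT2A was at 148, 309 and 260.0 FPKM in PA and 135, 132 and 45.3 in PA+BMS (log2 change -1.28, SE 0.39, adjusted p = 0.0162), MT1X fell by 0.73, and the zinc exporter SLC30A1 and the zinc sensor MTF1 rose by 0.64 and 0.55. Each of these 4 calls was lost with the trend removed and when 1 library was left out, MT2A without PA replicate 2 or PA+BMS replicate 3 (adjusted p 0.0559 to 0.0668), MT1X without PA replicate 2 or PA+BMS replicate 3 (adjusted p 0.0505 to 0.0591), SLC30A1 without PA replicates 1, 2 or 3 or PA+BMS replicate 3 (adjusted p 0.0556 to 0.118) and MTF1 without PA replicates 2 or 3 or PA+BMS replicates 1 or 3 (adjusted p 0.05001 to 0.169). All 4 passed without both PA+BMS replicate 3 and PA+OA replicate 1 (adjusted p 0.00171 to 0.0341), where the list counted 3 and 2. MT1X passed the filter through the PA libraries alone, a route open only to genes lower in PA+BMS.

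Glycolysis and hypoxia genes gave 4 rises and 14 falls among 30 (median -0.36; 3 and 7 without PA+BMS replicate 3, 3 and 7 without PA replicate 2 and 2 and 6 with the trend removed). Besides TXNIP, the prolyl hydroxylase P4HA1 rose from 4.33, 4.68 and 4.68 to 8.58, 9.13 and 10.9 FPKM (log2 change 0.91, SE 0.16, adjusted p = 0.00304). The phosphofructokinases PFKP and PFKL fell by 0.71 and 0.86. In autophagy and lysosome genes 9 rose and 13 fell of 39 (median -0.13; 7 and 7 without PA+BMS replicate 3, 7 and 7 without PA replicate 2 and 4 and 5 with the trend removed), in shares near the 26.5% and 31.2% of all tested genes. ATP6V1A, a subunit of the proton pump of lysosomes, rose from 5.47, 4.66 and 6.85 to 11.6, 12.1 and 14.4 FPKM (log2 change 1.05, SE 0.18, adjusted p = 0.00319), close to the controls at 10.1, 12.5 and 12.4. The membrane protein LAMP2 rose by 0.87 and the protease CTSL fell by 0.65.

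Among ribosomal protein genes and nuclear genes of the respiratory chain, more fell than rose, and the medians were lowest in PA+BMS replicate 3. Of 47 cytosolic ribosomal protein genes 0 rose and 34 fell (median -0.59). In limma 0 were higher at an unadjusted p under 0.05, and 0 rose by voom. By library the median difference from PA was -0.44, -0.47 and -0.93 in PA+BMS replicates 1, 2 and 3. The falls numbered 13 without replicate 3, 33 without both it and PA+OA replicate 1, 17 without PA replicate 2, 21 with the trend removed and 2 with the trend removed and replicate 3 left out, and with quantile normalization 7 and 7 rose and fell (median -0.056). RPL3 was at 675, 654 and 616 FPKM in PA and 418, 402 and 321 in PA+BMS (log2 change -0.78, SE 0.17, adjusted p = 0.00561), and RPS16, RPL13 and RPS14 fell by 0.93, 0.83 and 0.80. Reads of ribosomal protein genes can be shared with their many pseudogenes. In oxidative phosphorylation 3 rose and 24 fell of 43 nuclear genes (median -0.54), with medians of -0.29, -0.34 and -0.91 by library, and 3 and 8 without PA+BMS replicate 3, 3 and 10 without PA replicate 2 and 1 and 12 with the trend removed. The counts were 3 and 22 without both PA+BMS replicate 3 and PA+OA replicate 1, and 1 and 0 with the trend removed and PA+BMS replicate 3 left out. SDHA, a subunit of complex II, fell from 96.4, 93.97 and 86.5 to 59.7, 57.7 and 51.9 FPKM (log2 change -0.70, SE 0.16, adjusted p = 0.00599), NDUFB9 of complex I by 0.78, and UQCRC2 of complex III rose by 0.51. UQCRC2 missed the threshold with the trend removed (log2 change 0.11, adjusted p = 0.408). For the 13 mitochondrially encoded genes, 0 rose and 3 fell as deposited but 0 and 10 without PA+BMS replicate 3, and 0 were higher in limma at an unadjusted p under 0.05. By library their median was -0.60, -0.68 and 0.072, so replicate 3 lay apart from its group in the opposite sense to the ribosomal protein genes. Mitochondrial transcripts took 4.16%, 4.13% and 6.81% of reads in PA+BMS and 5.54%, 4.81% and 4.58% in PA. MT-ND3 fell from 2299.6, 2077 and 1821 to 1252, 1125 and 1312 FPKM (log2 change -0.74, SE 0.18, adjusted p = 0.00741), and MT-CO2 and MT-CO3 by 0.60 and 0.54. MT-CO2 was lost without PA replicates 1 or 2 or PA+BMS replicates 1 or 2 (adjusted p 0.0538 to 0.0832), and MT-CO3 without PA replicates 1, 2 or 3 or PA+BMS replicates 1 or 2 (adjusted p 0.0622 to 0.128). What part RNA quality or library preparation has in these counts was not tested.

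More matrix and cytoskeletal genes fell than rose. Of 25 tested matrix and fibrosis genes of 35, 1 rose and 12 fell (median -0.35; 1 and 8 without PA+BMS replicate 3, 1 and 8 without PA replicate 2 and 2 and 8 with the trend removed). COL4A2, a basement membrane collagen, fell from 32.8, 37.6 and 36.03 to 20.1, 19.3 and 17.7 FPKM (log2 change -0.86, SE 0.11, adjusted p = 0.000802), and the fibrillar collagen COL5A1 from 54.4, 58.8 and 58.4 to 34.8, 33.3 and 34.4 (log2 change -0.73, SE 0.10, adjusted p = 0.00112). LAMA5, a laminin chain, was at 41.8, 40.7 and 38.8 in control, 42.6, 40.9 and 36.5 in PA and 21.6, 20.3 and 23.8 in PA+BMS (log2 change -0.84, SE 0.11, adjusted p = 0.000984). TGFBI, a matrix protein induced by TGF-beta, fell from 47.6, 46.8 and 46.6 to 29.6, 30.1 and 25.99 (log2 change -0.70, SE 0.10, adjusted p = 0.00138). These 4 genes were below both PA and control in every PA+BMS library and passed in all 3 fits. COL1A1, the main fibrillar collagen, was at 12.4, 12.3 and 12.3 FPKM in PA and 10.4, 9.89 and 9.63 in PA+BMS (log2 change -0.28, SE 0.10, adjusted p = 0.0273), was lost without PA replicates 1, 2 or 3 or PA+BMS replicates 2 or 3 (adjusted p 0.0616 to 0.0719) and was at 0.10 with the trend removed (adjusted p = 0.277). It passed without both PA+BMS replicate 3 and PA+OA replicate 1. CTGF, a target of YAP signalling, was at 24.7, 27.4 and 21.6 in PA and 25.4, 27.01 and 23.1 in PA+BMS (log2 change 0.041, 95% interval -0.39 to 0.47, adjusted p = 0.869). Actin genes and targets of SRF gave 1 rise and 15 falls of 19 (median -0.64), 0 and 14 without PA+BMS replicate 3 and 0 and 8 with the trend removed, with medians by library of -0.56, -0.63 and -0.74. With the trend removed and replicate 3 left out together 0 of the 19 passed limma's adjusted threshold and 10 were lower at an unadjusted p under 0.05. ZYX, zyxin of focal adhesions, fell from 93.1, 107 and 92.7 to 58.03, 55.5 and 38.6 FPKM (log2 change -0.95, SE 0.20, adjusted p = 0.00530), and ACTN1, an actin cross-linker, by 0.49.

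**Figure D4:**
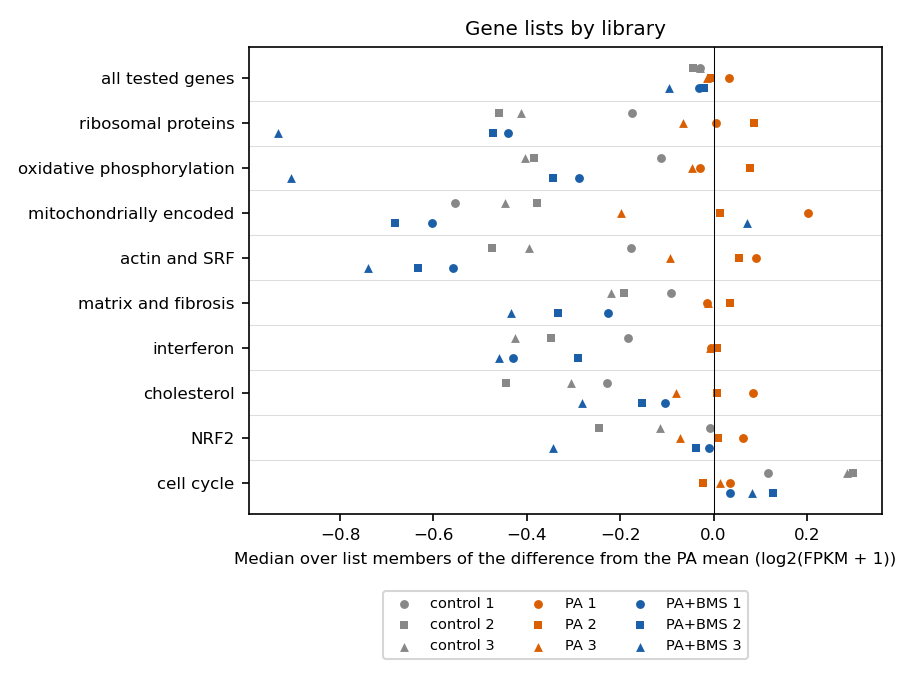
Median over the tested members of each list of the difference from the PA mean (x axis, log2(FPKM + 1)), 1 point per library of control (grey), PA (orange) and PA+BMS (blue). For ribosomal proteins the PA+BMS libraries lie at -0.44, -0.47 and -0.93, for mitochondrially encoded genes at -0.60, -0.68 and 0.072, and for actin and SRF genes at -0.56, -0.63 and -0.74.

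**Figure D5:**
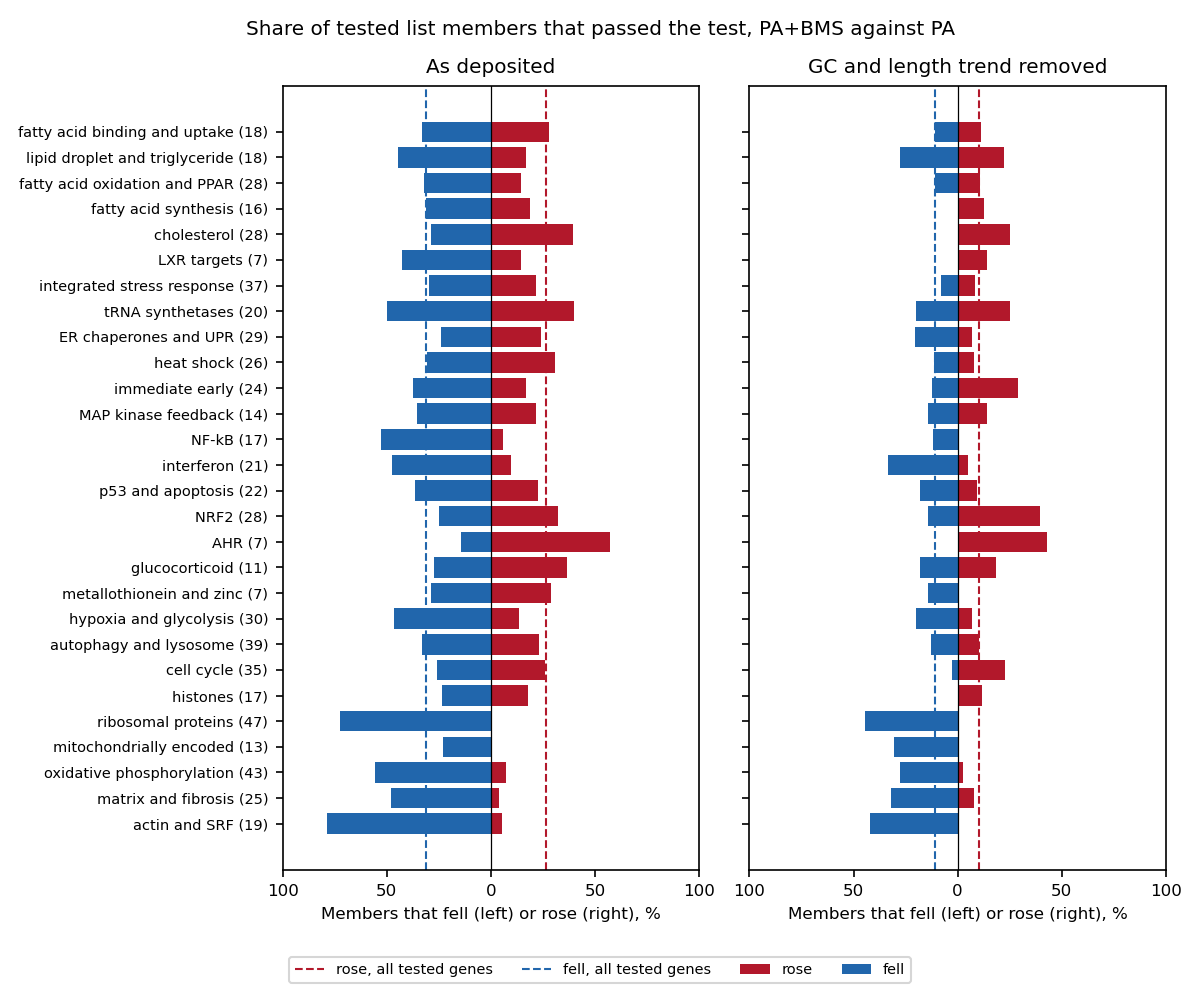
Share of tested members of each list (number tested in brackets) that fell (blue, to the left) or rose (red, to the right), as deposited (left panel) and after removal of the trend (right panel), with dashed lines for all tested genes (31.2% and 26.5% on the left, 10.8% and 10.2% on the right). Bars near the dashed lines match the background, as for the falls of fatty acid oxidation and PPAR genes, whose rises lie below the line on the left.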

How the data were processed

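RNA was sequenced from 12 HepaRG libraries, 3 in each of 4 groups. The authors deposited FPKM per gene, made with HISAT2 2.0.5 and featureCounts 1.5.0-p3 per the submitters' processing notes; the genome build was not given in the sources used here, but every gene ID, symbol and position equalled GENCODE 29 (GRCh38). Strand settings were not stated. FPKM times gene length gave whole reads (tolerance 0.001) in all libraries, 17494963 to 19971190 in the 6 compared, and the deposited FPKM already carried a median-of-ratios scaling. Limma 3.58.1 (R 4.3.3) was fitted to log2(FPKM + 1) over all 12 libraries with 1 coefficient per group, a trended eBayes prior and Benjamini-Hochberg adjustment (threshold 0.05), for genes that reached 1 FPKM in 3 or more of the 6 libraries. Adjusted p-values in the text are limma's and two-sided unless stated, and errors are standard errors of the log2 change over 3 libraries a group.

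Alternatives were another pseudocount (0.1), other filters, scalings (median-of-ratios, equal sums, quantile), voom on the recovered reads, a replicate block, precision weights, robust eBayes, each of the 6 libraries left out, and subtraction, library by library, of a smooth trend on GC content and length (natural splines, 5 df); 2 were added after seeing the data. Scripts were tested on simulated data. The correlations of deviations between same-numbered PA and PA+BMS libraries were -0.31, 0.40 and 0.076, so the numbers were not taken as pairs. Named genes were the 10 largest rises and 10 largest falls among protein-coding genes that passed as deposited, without PA+BMS replicate 3 and with the trend removed, had a mean of at least 2 FPKM in either group and did not overlap between groups (532 rises and 663 falls qualified), up to 4 members with the smallest p in each of 28 lists, and a fixed set; some of these are not reported here. Members, lists and markers were chosen with earlier results of these data known; lists are described by counts and medians, with no test. Promoters were the 250 bases before the RefSeq start (GRCh38.p14), with an entry for 8365 of 11151 tested genes; motifs were searched on both strands.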

Additional observations from a re-analysis of the deposited data

How the results depend on the processing

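Depth was similar in the 6 libraries, and it limits what can be said of genes under the filter, such as FABP4, FABP1, CD36 and PLIN2. Adding the replicate number as a block, which the pairing check did not favour, gave 7017 calls against 6435, and 3055 (1458 rose and 1597 fell) with the trend removed as well. The count was 2343 (1135 rose and 1208 fell) with the trend removed, 2679 (1288 rose and 1391 fell) with the trend removed in only the 6 libraries, and 941 (435 rose and 506 fell) with the trend removed in the fit of 12 libraries less PA+BMS replicate 3. As deposited, only the 6 libraries gave 6659 (3026 rose and 3633 fell), and 6752 (3018 rose and 3734 fell) passed in these less PA+BMS replicate 3. Leaving out that library and PA+OA replicate 1 together gave 6516 (2944 rose and 3572 fell). Of 124 named genes that passed as deposited, 114 kept the call without PA+BMS replicate 3 and 123 without both, where GDF15 lost it. The count was 4246 with a filter at 5 FPKM (1338 rose), where fewer genes were tested, and with equal sums 4463 rose and 1206 fell. Leaving out 1 library in turn gave 3872 to 6159 calls, 1758 to 2860 rises and 2114 to 3299 falls, lowest without PA+BMS replicate 3, followed by PA replicate 2 (3934). Quantile normalization gave 5735 (2887 rose and 2848 fell), voom on the recovered reads 6515, and no filter 4924. At a pseudocount of 0.1, 952 called genes changed at least 2-fold, against 277. Why the counts moved was not tested.

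The sign of the log2 change turned in 11 named genes, of which COL1A1 had passed as deposited. With the trend removed, with or without the block and in all 12 or only the 6 libraries, it was -0.16 for FABP5, -0.083 for PDK4, 0.071 for CHAC1, 0.087 for TRIB3, -0.016 for HSPA5, 0.30 for HMOX1, 0.45 for EGR1 and 0.10 for COL1A1. With PA+BMS replicate 3 also left out it was -0.20 for FABP5, -0.21 for PDK4, 0.018 for ATF4, 0.15 for CHAC1, 0.15 for TRIB3, -0.011 for HSPA5, 0.46 for HMOX1, 0.39 for EGR1 and 0.14 for COL1A1. Among these values HMOX1 with replicate 3 left out (adjusted p = 0.0426) and EGR1 in the 6 libraries (adjusted p = 0.0136) passed the threshold. Quantile normalization gave 0.085 for ATF4, 0.074 for TRIB3, 0.61 for SCD and 0.26 for EGR1. Equal sums gave 0.36 for SCD, 0.038 for HMOX1, 0.36 for EGR1 and 0.066 for COL1A1. EGR1 was at 0.020 with precision weights and 0.034 in each of 3 fits without PA+BMS replicate 3. Leaving out 1 library in turn gave -0.049 to 0.034 for EGR1, -0.11 to 0.10 for FABP5, -0.045 to 0.12 for CTGF and -0.13 to 0.092 for SCD.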
